A study of Mus musculus with 28 samples.

Results

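Hox genes are the homeodomain transcription factors that give cells their position along the head-to-tail axis. They were followed here in purified sensory neurons of the mouse by gene symbol: every row named Hoxa, Hoxb, Hoxc or Hoxd with a number was taken, which gave 39 of the 45952 genes listed. The 39 members lie in 4 clusters (mm10). Hoxa holds 11 members on chromosome 6 (52155590 to 52260880, minus strand), Hoxb 10 on chromosome 11 (96194316 to 96368256, plus strand), Hoxc 9 on chromosome 15 (102921103 to 103036852, plus strand) and Hoxd 9 on chromosome 2 (74668310 to 74765142, plus strand). Of the 39 rows, 23 overlapped another row of the table, and the sources used here do not say whether strand was kept, so that reads shared by overlapping or antisense genes cannot be told apart.

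Levels were FPKM, read fragments divided by transcript length and by sequencing depth, so that genes can be compared with each other. The SNL libraries (3 male, 3 female) came from adult C57BL/6J mice at day 8 after partial sciatic nerve ligation (SNL), from the injured-side lumbar dorsal root ganglia (DRG), with neurons enriched by magnetic negative selection (MACS). This selection keeps mainly small-diameter nociceptors and leaves erythrocytes behind, and the ligations were done on females in estrus. The naïve libraries (11 male, 11 female) came from uninjured adult AdvGFP mice (STOCK Tg(Avil-EGFP)QD84Gsat/Mmucd), in which the advillin promoter drives GFP in sensory neurons, sorted by fluorescence (FACS) with satellite glia as the labelled contaminant and without staging of estrus. Each library of either experiment pooled 2 mice of a sex. The methods name trigeminal ganglia (n = 2) and, for the rest of an n of 11, lumbar DRG as sources of naïve neurons. Each sex has 11 naïve libraries, so this n reads as a count per sex. The labels call every library DRG neurons and do not say which came from which ganglion. SNL and naïve libraries differed in injury, strain, purification, ganglia and table. The span of lumbar levels taken was narrower after SNL, and the naïve lumbar DRG came from both sides. The tables were normalised separately, so levels of SNL and naïve libraries are given side by side without a test.

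Within a cluster, Hox genes are numbered by paralog group, and the number follows their order on the chromosome. Low-numbered genes are switched on early and reach forward into the hindbrain, and high-numbered genes are used towards the lumbar, sacral and tail levels. Neurons keep much of this code as adults, whereas the neural crest and placodes of the head, which form the trigeminal ganglion, arise largely in front of it. Hox proteins bind DNA together with TALE homeodomain partners of the Pbx, Meis and Prep families, Polycomb and trithorax complexes hold the clusters silent or active, and retinoic acid and Cdx proteins set them in the embryo.

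The start-site regions of 6 members are shown because the results below turn on them. Hoxa7, Hoxa9 and Hoxa10 led the Hoxa cluster, Hoxd8 and Hoxd10 led the Hoxd cluster, and Hoxd1 was the member left in the 4 naïve libraries that were otherwise near 0. Each is the 250 bases before the RefSeq start, 5′ to 3′ on the gene's own strand (GRCm38.p6, the assembly behind mm10): Hoxa7 chr6:52218574-52218823, Hoxa9 chr6:52227371-52227620 and Hoxa10 chr6:52240855-52241104 on the minus strand, and Hoxd8 chr2:74704365-74704614, Hoxd10 chr2:74691641-74691890 and Hoxd1 chr2:74762730-74762979 on the plus strand. Capitals mark matches to the 4 motifs searched on both strands, with overlapping matches counted. The first was TATAAA, the core promoter box. The others were TGATNNAT, at which Pbx and Hox proteins bind as a pair, TTTATG, the core bound by Cdx proteins, and TAATTA, which many homeodomains bind.
Hoxa7: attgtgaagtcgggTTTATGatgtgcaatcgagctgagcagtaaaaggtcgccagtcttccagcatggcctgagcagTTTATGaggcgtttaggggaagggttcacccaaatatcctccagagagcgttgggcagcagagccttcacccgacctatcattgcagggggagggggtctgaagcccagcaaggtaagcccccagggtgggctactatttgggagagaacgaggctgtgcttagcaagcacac
Hoxa9: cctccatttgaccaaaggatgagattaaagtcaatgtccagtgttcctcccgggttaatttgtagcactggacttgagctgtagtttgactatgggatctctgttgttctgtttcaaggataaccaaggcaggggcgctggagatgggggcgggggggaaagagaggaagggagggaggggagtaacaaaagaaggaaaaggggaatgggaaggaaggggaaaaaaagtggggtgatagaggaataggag
Hoxa10: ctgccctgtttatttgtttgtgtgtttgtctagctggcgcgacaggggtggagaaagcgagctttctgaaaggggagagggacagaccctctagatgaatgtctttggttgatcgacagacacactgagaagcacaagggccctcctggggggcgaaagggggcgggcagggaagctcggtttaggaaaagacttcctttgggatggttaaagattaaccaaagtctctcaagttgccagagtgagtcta
Hoxd8: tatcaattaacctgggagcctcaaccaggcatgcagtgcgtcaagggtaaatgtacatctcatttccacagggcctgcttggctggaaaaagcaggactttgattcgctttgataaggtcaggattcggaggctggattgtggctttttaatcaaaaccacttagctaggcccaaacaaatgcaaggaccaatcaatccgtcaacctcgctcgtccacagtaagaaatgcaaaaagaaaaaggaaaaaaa
Hoxd10: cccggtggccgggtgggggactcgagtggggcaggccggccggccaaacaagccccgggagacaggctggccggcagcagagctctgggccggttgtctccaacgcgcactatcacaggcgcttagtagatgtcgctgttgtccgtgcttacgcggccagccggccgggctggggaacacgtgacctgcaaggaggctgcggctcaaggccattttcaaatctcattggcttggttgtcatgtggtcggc
Hoxd1: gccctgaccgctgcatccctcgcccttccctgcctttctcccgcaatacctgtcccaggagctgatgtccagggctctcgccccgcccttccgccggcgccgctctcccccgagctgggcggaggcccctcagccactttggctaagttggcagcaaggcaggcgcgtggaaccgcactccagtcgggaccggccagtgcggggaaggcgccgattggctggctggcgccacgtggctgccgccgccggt
RefSeq upstream regions were held for 22 of the 39 members (9 Hoxa, 3 Hoxb, 1 Hoxc and 9 Hoxd), with 24 entries. Among these 6, only Hoxa7 held a match, with the Cdx core found 2 times. TTTATG was in 5 of the 24 Hox entries (20.8%) and in 10.8% of all 32851 upstream regions of this length. For TATAAA the shares were 16.7% and 12.4%, for TGATNNAT 16.7% and 7.68%, and for TAATTA 8.33% and 4.84%, and 14 of the 24 Hox entries held none of the 4. A match describes the letters and shows no binding. Hox entries had a median GC content of 58.6% and 12.5 CpG, against 52.4% and 6 CpG over all regions. The printed regions differed widely, with 44.4% GC and 6 CpG at Hoxd8, 65.6% and 20 CpG at Hoxd10 and 71.6% and 24 CpG at Hoxd1. The region before Hoxd1 also holds the start of Haglr, a non-coding RNA that begins 84 bases away and runs on the opposite strand. For Hoxa7 and Hoxa9 the RefSeq start lay 3281 and 3719 bases inside the 5′ end of the table's row, so the rows extend further upstream. Hoxa10 has a second entry (chr6:52234940-52235189), not printed, whose start lies 5915 bases inside the row and which holds 1 TATAAA match, 59.2% GC and 20 CpG; the printed entry, at the row's 5′ end, has 51.6% GC and 7 CpG.

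Sequencing gave 24800048 to 50649730 input reads per library, of which 78.4% to 89.8% mapped uniquely. RNA integrity numbers were 5.8 to 9.1 after SNL and 5.2 to 9.9 in naïve libraries (21 of 22 listed). Sensory neuron markers were present in every library: the 9 of 10 listed markers analysed here, such as Avil and Pou4f1, summed to 6380 to 7888 FPKM after SNL and 4683 to 25162 FPKM in naïve libraries. Satellite glia markers (10 genes) summed to 46.2 to 86.8 FPKM after SNL and to 1245 to 6555 FPKM in naïve libraries. After SNL, Sox10, a defining glial factor, did not exceed 0.0381 FPKM, while Glul averaged 48.9 FPKM in males and 61.7 FPKM in females. Schwann cell markers (6 genes) summed to 1010 to 2846 FPKM after SNL and to 785 to 3952 FPKM in naïve libraries. Erythroid markers (6 genes) summed to 568 to 18962 FPKM after SNL and 2.24 to 81.0 FPKM in naïve libraries.

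In 4 naïve libraries (male replicates 2 and 10, female replicates 2 and 11) the Hox genes were near 0, and these 4 were named in the choice of the members for that reason. Their Hox levels are therefore a description, the levels below are given apart for them and for the other 18, and the sex comparison of the Hox genes is given with and without them. They did not stand apart in RIN (7.6 to 9.2), in uniquely mapped reads (83.0% to 86.8%) or in satellite glia markers (3970 to 5283 FPKM). Their sensory neuron marker sums were 4683 to 7534 FPKM, against 7229 to 25162 FPKM in the other 18, and the part of this in their Hox levels was not tested. On average Calca carried most of the naïve sum, with 11998 FPKM in males and 7912 FPKM in females. The next marker, Avil, averaged 759 and 860 FPKM, so the sum mainly follows Calca.

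The Hox sum was more than 100 FPKM in every library except those 4, and the part of cells other than neurons in it was not tested. The 39 members summed to 119 to 179 FPKM after SNL (median 141, n = 6), to 1.67 to 2.76 FPKM in the 4 naïve libraries and to 122 to 202 FPKM in the other 18 (median 152). The number of members at 1 FPKM or more was 12 to 15 after SNL, 0 to 1 in the 4 and 11 to 18 in the other 18. In these bulk samples, fewer cells with a Hox code and less Hox RNA per cell cannot be told apart. The source ganglion of each library is not labelled, so its part in these levels was not tested.

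**Figure D1:**
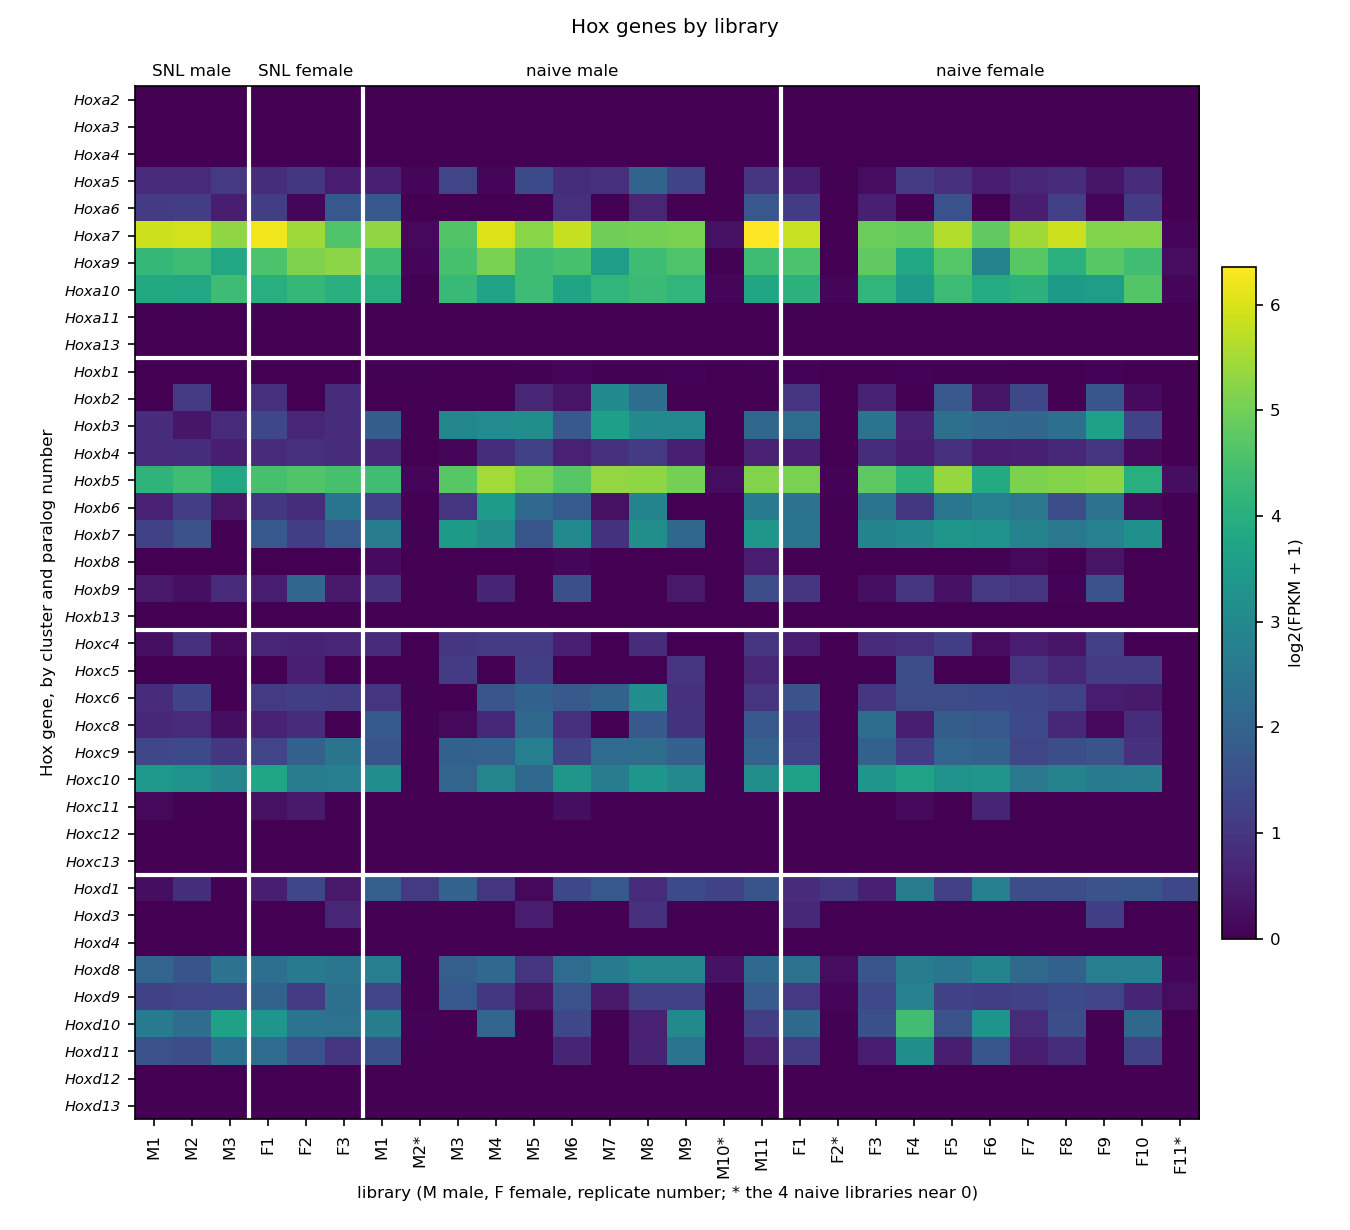
Heat map of 38 Hox genes (rows, by cluster and paralog number) in all 28 libraries (columns: SNL male, SNL female, naïve male, naïve female). Colour is log2(FPKM + 1), and asterisks mark the 4 naïve libraries near 0, which are dark in every row except Hoxd1, where they held 0.995 to 1.61 FPKM.

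A few members made up most of this sum. Hoxa7, Hoxa9, Hoxa10 and Hoxb5 together made up 70.6% to 78.4% of the Hox sum after SNL (median 75.8%) and 47.4% to 77.6% in the other 18 naïve libraries (median 71.6%). Hoxa7 was the highest member in 5 of 6 SNL libraries and Hoxa9 in 1, while in the other 18 naïve libraries Hoxa7 was highest in 14 and Hoxb5 in 4. Members at 1 FPKM or more in every SNL library numbered 9 (Hoxa7, Hoxa9, Hoxa10, Hoxb5, Hoxc9, Hoxc10, Hoxd8, Hoxd9 and Hoxd10), and 5 of these (Hoxa7, Hoxa9, Hoxa10, Hoxb5 and Hoxc10) were at 1 FPKM or more in all the other 18 naïve libraries as well. At the other end, 14 members stayed under 1 FPKM in all 28 libraries, and 9 of them were listed at 0 throughout (Hoxa2, Hoxa3, Hoxa4, Hoxa13, Hoxb13, Hoxc12, Hoxc13, Hoxd4 and Hoxd13). A listed 0 can be a failed estimate. For Hoxa3 and Hoxa4, which overlap each other and several non-coding rows, the deposited tables give an authors' mean normalised count of 15.9 and 17.8 after SNL despite 0 FPKM in every library.

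By cluster, Hoxa made up 57.8% to 67.1% of the Hox sum after SNL (median 63.3%) and 37.2% to 63.8% in the other 18 naïve libraries (median 52.9%). Hoxb made up 12.6% to 22.9% after SNL (median 17%) and 18.4% to 42.8% in the 18 (median 30.5%). Hoxc made up 6.75% to 9.4% after SNL and 6.6% to 13.7% in the 18. Hoxd differed widely between naïve libraries, with 6.98% to 17.9% after SNL and 1.22% to 31.8% in the 18, where naïve female 4 was highest and the next library had 19.9%.

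**Figure D2:**
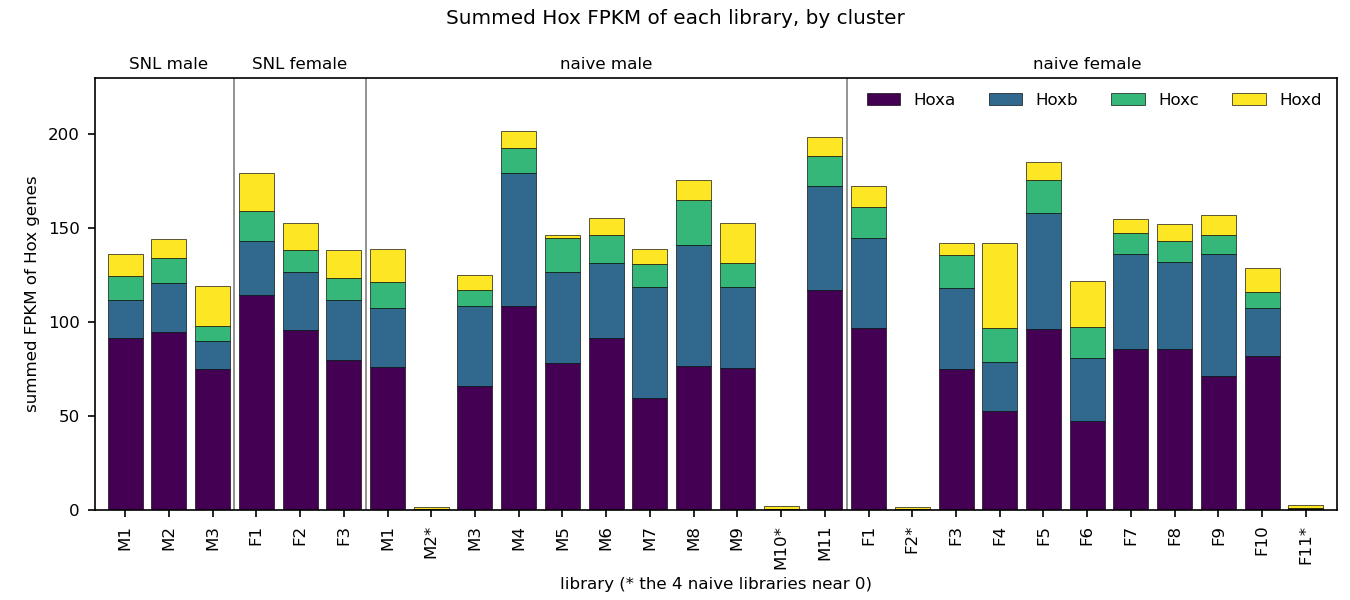
Stacked bars of the summed FPKM of the 39 Hox genes in each library, coloured by cluster and starting at 0, in the order SNL male, SNL female, naïve male, naïve female. The SNL bars reach 119 to 179 FPKM and 18 naïve bars 122 to 202 FPKM, while the bars of the 4 libraries marked with an asterisk end at 1.67 to 2.76 FPKM.

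Most of the Hox sum came from paralogs 5 to 10. Paralogs 5 to 8, the brachial and thoracic groups, gave 44.01% to 62.1% after SNL (median 55.1%) and 44.2% to 71.4% in the other 18 naïve libraries (median 58%). Paralogs 9 to 13, the posterior groups, gave 35.1% to 52.2% after SNL (median 42.3%) and 25% to 50.4% in the 18 (median 33.2%). Paralogs 1 to 4, the hindbrain groups, gave at most 3.83% after SNL and 15.3% in the 18. The posterior signal was low at paralog 11 and near 0 beyond it. Paralog 10 summed to 25.3 to 38.2 FPKM after SNL and 16 to 42.1 FPKM in the 18, and paralog 11 to 0.999 to 4.02 FPKM after SNL and 0 to 8.16 FPKM in the 18. Paralogs 12 and 13, used at the tail and the tips of the limbs, reached at most 0.0102 FPKM in any library.

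**Figure D3:**
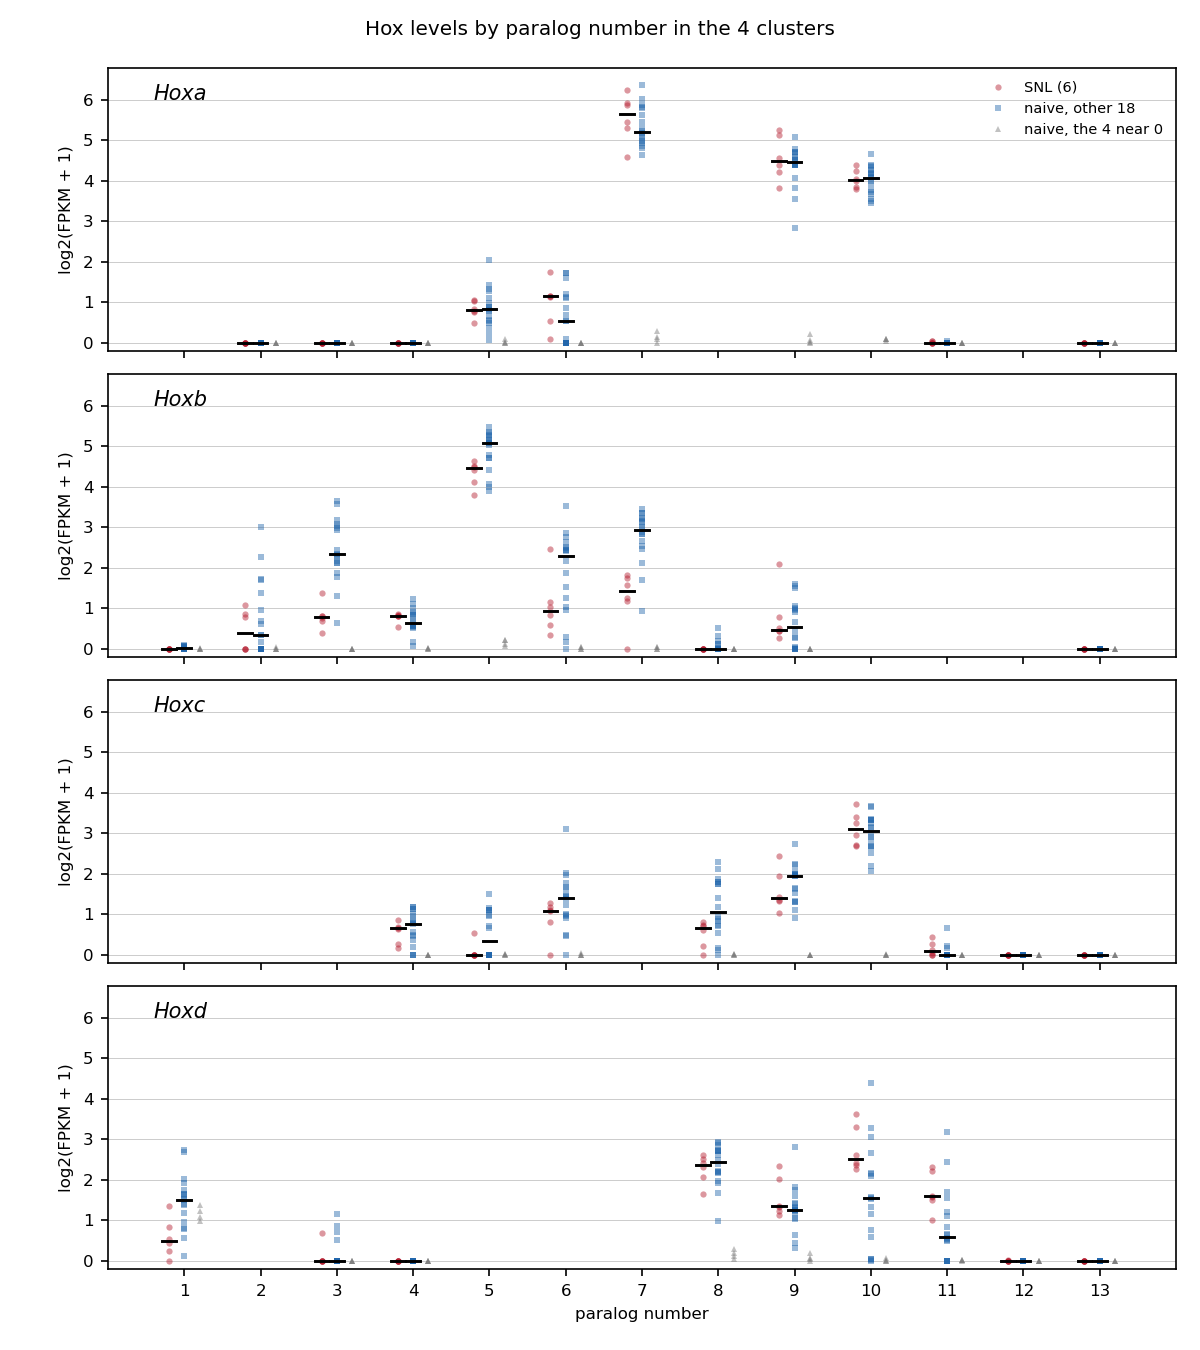
Level of 38 members, as log2(FPKM + 1), against paralog number, with 1 panel per cluster; circles are SNL libraries, squares the other 18 naïve libraries and triangles the 4 naïve libraries near 0, and black lines mark medians of the SNL libraries and of the 18. Levels are highest at paralogs 7, 9 and 10 in Hoxa, at 5 in Hoxb, at 10 in Hoxc and at 8 and 10 in Hoxd, and nothing is seen at 12 and 13.

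In the Hoxa cluster, Hoxa7, Hoxa9 and Hoxa10 were high and the members anterior to them low. Hoxa7, a thoracic-level gene, had 57.7, 59.8 and 38.5 FPKM in SNL males and 74.4, 42.5 and 23.2 FPKM in SNL females, 0 to 0.228 FPKM in the 4 naïve libraries and 24 to 81.2 FPKM (median 35.9) in the other 18. Hoxa9, of the group that sets the limits of the thorax, had 17.7, 20.1 and 13.1 FPKM in SNL males and 22.6, 33.9 and 37 FPKM in SNL females, 0 to 0.157 FPKM in the 4 and 6.16 to 32.9 FPKM (median 21.1) in the 18. Hoxa10, of the group that gives vertebrae their lumbar form, had 13.5, 12.9 and 20.02 FPKM in SNL males and 14.9, 18 and 15.5 FPKM in SNL females, 0.0309 to 0.0739 FPKM in the 4 and 10.01 to 24.4 FPKM (median 15.9) in the 18. For all 3, the highest of the 4 lay far below the lowest of the 18, while SNL and the 18 overlapped. Hoxa10 was the steadiest of the 4 highest members, with a coefficient of variation of 17.3% after SNL and 25.2% in the 18, against 36.8% and 36.7% for Hoxa7. Hoxa5, which acts in the neck, lung and brachial cord, reached 1.09 FPKM after SNL and 3.14 FPKM in the 18, and Hoxa6 2.36 and 2.30 FPKM. Hoxa11, the sacral member of the cluster, did not exceed 0.0319 FPKM.

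The Hoxb cluster was carried by Hoxb5, a regulator of brachial-level and enteric neural crest identity, which had 16.5, 20.4 and 12.8 FPKM in SNL males and 21.7, 23.7 and 22 FPKM in SNL females, 0.0434 to 0.17 FPKM in the 4 naïve libraries and 13.9 to 43.8 FPKM (median 32.9) in the other 18. The next members were low after SNL. Hoxb7 had 1.4, 1.97 and 0 FPKM in SNL males and 2.35, 1.27 and 2.56 FPKM in SNL females, at most 0.0333 FPKM in the 4 and 0.921 to 9.99 FPKM (median 6.67) in the 18. Hoxb3, active in the hindbrain and neck, had 0.745, 0.313 and 0.696 FPKM in SNL males and 1.61, 0.617 and 0.763 FPKM in SNL females, 0 FPKM in the 4 and 0.554 to 11.5 FPKM (median 4.03) in the 18. Hoxb6 had 0.511, 1.22 and 0.272 FPKM in SNL males and 1.05, 0.774 and 4.56 FPKM in SNL females, at most 0.0327 FPKM in the 4 and 0 to 10.4 FPKM (median 3.94) in the 18. Thus the medians of Hoxb3, Hoxb6 and Hoxb7 were at or under 1.69 FPKM after SNL and at or above 3.94 FPKM in the 18. The ranges overlapped, and these values come from separately normalised tables, different purifications and different spans of ganglia. Hoxb2, which patterns hindbrain segments, was uneven among naïve libraries: it was listed at 0 in 7 of the 18 and reached 7.04 FPKM in naïve male 7. Hoxb4 stayed between 0.0582 and 1.34 FPKM in the 18 and Hoxb9 between 0 and 2.03 FPKM, and Hoxb8, Hoxb1 and Hoxb13 did not reach 0.5 FPKM anywhere.

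In the Hoxc cluster, Hoxc10, a determinant of lumbar motor neurons, led, with 9.57, 8.62 and 6.72 FPKM in SNL males and 12.3, 5.48 and 5.61 FPKM in SNL females, at most 0.0178 FPKM in the 4 naïve libraries and 3.24 to 11.7 FPKM (median 7.34) in the other 18. Hoxc9, which sets thoracic motor neuron identity, had 1.56, 1.7 and 1.04 FPKM in SNL males and 1.51, 2.84 and 4.47 FPKM in SNL females, 0 FPKM in the 4 and 0.866 to 5.72 FPKM (median 2.85) in the 18. Hoxc6, of the brachial group, had 0.76, 1.43 and 0 FPKM in SNL males and 1.11, 1.28 and 1.14 FPKM in SNL females, at most 0.0264 FPKM in the 4 and 0 to 7.66 FPKM (median 1.65) in the 18. Levels were thus highest at paralog 10 and near 0 beyond it. Hoxc11 reached 0.367 FPKM after SNL and 0.577 FPKM in the 18, and Hoxc12 and Hoxc13 were listed at 0. Hoxc4, Hoxc5 and Hoxc8 reached 1.29, 1.84 and 3.9 FPKM in the 18. Hoxc5's row spans Hoxc6, Hoxc8, Hoxc9 and Hoxc10, so the split of reads between these 5 is uncertain.

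The Hoxd cluster held both steady and uneven members. Hoxd8 had 3.2, 2.12 and 4.32 FPKM in SNL males and 3.99, 5.12 and 4.7 FPKM in SNL females, 0.0301 to 0.237 FPKM in the 4 naïve libraries and 0.988 to 6.59 FPKM (median 4.45) in the other 18. Hoxd9 had 1.35, 1.52 and 1.57 FPKM in SNL males and 3.09, 1.2 and 4.07 FPKM in SNL females, at most 0.149 FPKM in the 4 and 0.256 to 6.02 FPKM (median 1.4) in the 18. For both, the highest of the 4 lay below the lowest of the 18. Hoxd10, which with Hoxc10 specifies lumbar motor neurons, had 5.09, 3.82 and 11.4 FPKM in SNL males and 8.94, 4.36 and 4.19 FPKM in SNL females, at most 0.0451 FPKM in the 4 and 0 to 20.1 FPKM (median 1.92) in the 18. Its neighbour Hoxd11, a limb and sacral gene, had 2, 1.82 and 4.02 FPKM in SNL males and 3.64, 2.05 and 0.999 FPKM in SNL females, at most 0.0231 FPKM in the 4 and 0 to 8.03 FPKM (median 0.519) in the 18. Both were above 0.9 FPKM in every SNL library, but among the 18 Hoxd10 was at 1 FPKM or more in 12 and under 0.1 FPKM in 4, and Hoxd11 was at 1 FPKM or more in 6 and at 0 in 5. The coefficient of variation over the 18 was 142% for Hoxd10 and 159% for Hoxd11, against 49.6% and 48.0% after SNL. The ganglia taken also differed between the experiments, and their part in this was not tested.

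The naïve libraries that were high for Hoxd10 were also high for Hoxd11. Naïve female 4 had 20.1 FPKM of Hoxd10 and 8.03 FPKM of Hoxd11, female 6 had 8.73 and 2.24 FPKM, male 9 had 7.3 and 4.47 FPKM, and male 1 had 5.37 and 1.95 FPKM. These 4 libraries were the 4 highest for both genes. Naïve female 4 also had the highest naïve marker sums for fibroblasts (332 FPKM, the next library 68.5), endothelial and mural cells (94.9 FPKM, the next 24.6), immune cells (66.5 FPKM, the next 44.6) and Schwann cells (3952 FPKM, the next 1902), whose part in these levels was not tested. Without it, the highest of the 18 was 8.73 FPKM for Hoxd10 and 4.47 FPKM for Hoxd11, and the coefficients of variation were 106% and 131%. The row Gm28309 (chr2:74683446-74694194, plus strand) overlaps Hoxd10 and Hoxd11 and was high in the same libraries, with 34.7 FPKM in female 4, 14.8 in male 9, 10.4 in male 1 and 9.81 in female 6, so that reads of the 3 rows cannot be told apart. Hoxd9, which Gm28309 does not overlap, also peaked in female 4, at 6.02 FPKM. The 4 libraries were not set apart in Hoxa7, a member of another cluster, where they had 38.6 FPKM in male 1, 33.1 in male 9, 28 in female 4 and 26.9 in female 6. Some other members were at an extreme in 1 of them. Of the 18, female 4 had the highest Hoxc10 (11.7 FPKM) and the lowest Hoxb3 (0.554 FPKM). Female 6 had the lowest Hoxa9 (6.16 FPKM) and the lowest Hoxb5 (13.9 FPKM).

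Hoxd1, a gene of the most anterior paralog group that is known from mouse nociceptors, was the exception to the near-0 pattern. The 4 naïve libraries had 1.12 FPKM (male 2), 1.35 FPKM (male 10), 0.995 FPKM (female 2) and 1.61 FPKM (female 11). All lay inside the range of the other 18, which was 0.0918 to 5.7 FPKM (median 1.84). Hoxd1 thus gave 57.7% to 66.9% of the Hox sum in the 4, whose Hox sum without it was 0.553 to 1.16 FPKM. After SNL, Hoxd1 had 0.186, 0.783 and 0 FPKM in SNL males and 0.447, 1.56 and 0.363 FPKM in SNL females. Hoxd1 lies at the opposite end of its cluster from Hoxd11. Hoxd3 reached 0.615 FPKM after SNL and 1.25 FPKM in the 18, and Hoxd12 stayed under 1 FPKM in all 28 libraries.

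Haglr, the non-coding RNA that shares the Hoxd1 start region printed above (chr2:74748422-74762896, minus strand), was, like Hoxd1, present in the 4 naïve libraries. It had 10.98 FPKM in male 2, 6.61 in male 10, 2.75 in female 2 and 6.14 in female 11, inside the 0.466 to 20.7 FPKM (median 7.84) of the other 18. After SNL, Haglr had 1.16, 1.21 and 0.167 FPKM in SNL males and 1.37, 2.22 and 0 FPKM in SNL females. Of the 47 other rows inside the 4 clusters, 32 were listed at 0 in all 28 libraries, including all 6 microRNA rows, and 6 averaged 1 FPKM or more in either experiment (Haglr, Hotairm1, Gm28309, Gm53, Hoxd3os1 and Gm27868). Hotairm1, a non-coding RNA of the Hoxa cluster, had 1, 2.97 and 18.8 FPKM in SNL males and 3.37, 2.29 and 1.85 FPKM in SNL females, and it was at 0 to 0.628 FPKM in the 4 naïve libraries and 0 to 13.2 FPKM in the 18. Gm27868, a row of 102 bases, was listed above 0 in naïve female 6 alone.

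**Figure D4:**
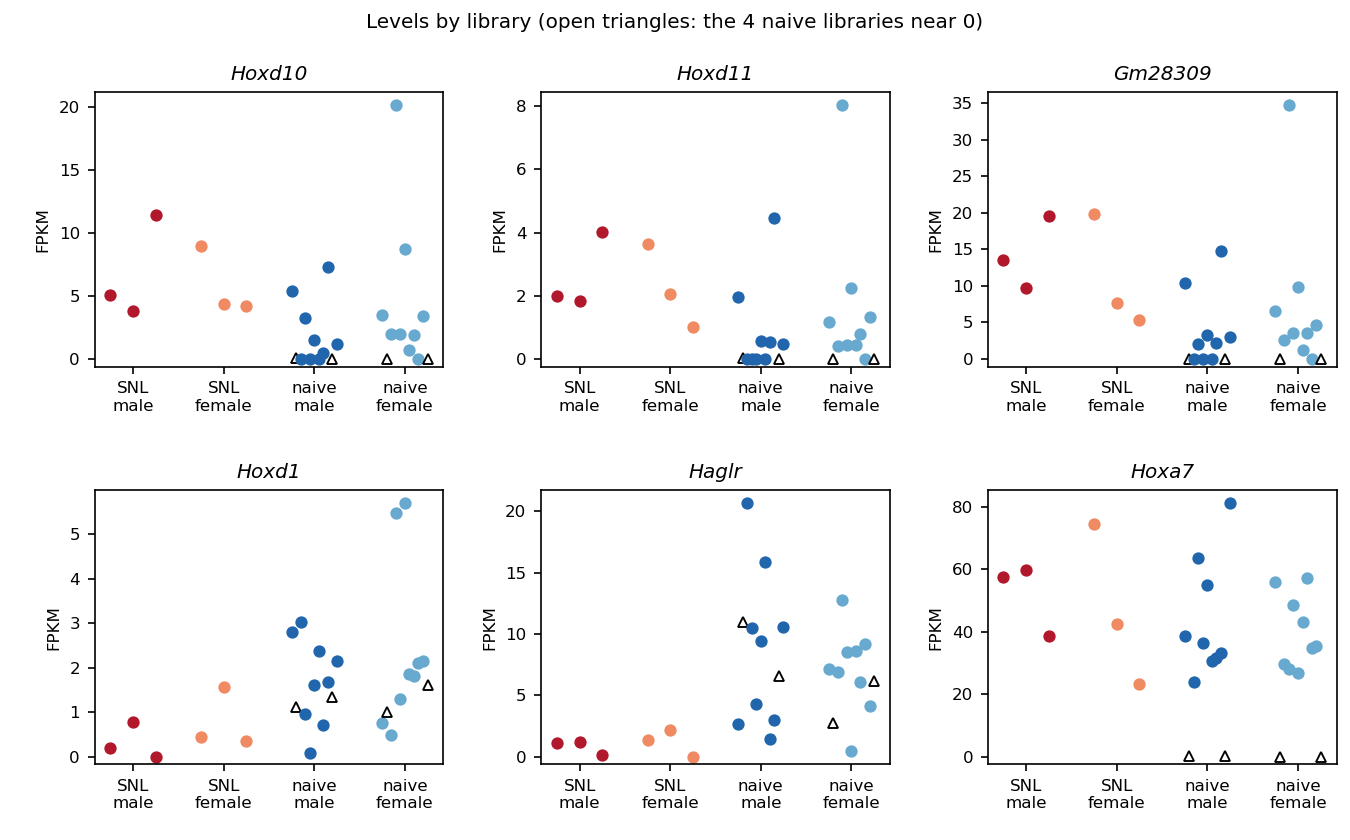
FPKM of Hoxd10, Hoxd11, Gm28309, Hoxd1, Haglr and Hoxa7 in each library, by group (SNL male, SNL female, naïve male, naïve female), on linear axes; each point is 1 library and open triangles are the 4 naïve libraries near 0. Hoxd10, Hoxd11 and Gm28309 peak together in naïve female 4, and the triangles lie among the other points for Hoxd1 and Haglr but at the bottom for Hoxa7.

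Over all genes, few set the 4 naïve libraries apart from the 18 in this direction. Of 12893 genes tested, 17 (0.132%) had all 4 below all 18, and 10 of these were Hox genes (Hoxa7, Hoxa9, Hoxa10, Hoxb3, Hoxb5, Hoxb7, Hoxc9, Hoxc10, Hoxd8 and Hoxd9). Hoxb4 also lay below in all 4 but did not pass the filter on low values, which makes 11 of the 39 members. The 4 were named by their Hox levels, so these counts are a description. The other 7 genes were Abcg2, Cd9-ps, Cldn9, Epha5, Gm12854, Kcnv1 and Mrgprx3-ps. Of the 8 genes nearest to the clusters, 1 at each end, none of the 3 highest was low in the 4. Skap2, beside the Hoxa cluster, had 27.3 to 57.7 FPKM after SNL, 29.9 to 47.4 FPKM in the 4 naïve libraries and 16.8 to 59.8 FPKM in the 18. Mtx2, beside Hoxd1, had 3.16 to 20.8 FPKM after SNL, 7.64 to 19.3 FPKM in the 4 and 3.93 to 25.5 FPKM in the 18, and Calcoco1, beside Hoxc13, had 14.03 to 27.3 FPKM after SNL, 18.6 to 31.4 FPKM in the 4 and 6.61 to 24.8 FPKM in the 18.

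The sexes were compared next, since the study asked whether male and female sensory neurons differ. After SNL, no Hox gene was called. Of the 39 members, 14 passed the filter of at least 1 FPKM in at least 2 libraries of a sex, and with limma on log2(FPKM + 1) 0 were called at an adjusted p under 0.05, where 5 of 11303 genes (0.0442%) were. At an unadjusted p under 0.05 there was 1 Hox gene, Hoxa9, against 417 genes (3.69%) in all. Hoxa9 had 17.7, 20.1 and 13.1 FPKM in SNL males against 22.6, 33.9 and 37 FPKM in SNL females, so that all 3 males lay below all 3 females. Its log2 fold change, male minus female, was -0.83 (SE 0.27, p = 0.0138, adjusted p = 0.945 by limma), and it averaged 16.9 FPKM in males and 31.2 FPKM in females. Hoxb5, given above, also did not overlap, with means of 16.6 FPKM in males and 22.5 FPKM in females; its log2 fold change was -0.44 (SE 0.24, p = 0.0998, adjusted p = 0.945 by limma). These were the 2 members with non-overlapping sexes, both lower in males. Of all genes tested, 529 (4.68%) were lower in males in this way and a further 405 were higher in males. With median-of-ratios scaling, 362 genes were lower and 547 higher in males without overlap. The tested members leaned to lower levels in males in 10 of 14 cases (71.4%), against 59.4% of all genes tested, and their median log2 fold change was -0.43, against -0.08 over all genes. Without single libraries this median ran from -0.45 to -0.27; it was -0.27 without SNL male 3 and -0.28 without SNL female 3. SNL male 3 had the lowest RIN of the 6, 5.8, and the highest erythroid marker sum, 18962 FPKM, and their part in the median was not tested. With median-of-ratios scaling 9 of 14 members and 5593 of 11273 genes were lower in males, and with quantile normalization 8 of 14 members and 5487 of 11303 genes. Sensory neuron markers summed to 6380 to 6715 FPKM in males and 6981 to 7888 FPKM in females, and of the 9 markers tested 0 were called. The order of the sums did not hold across the markers. Calca, the highest, averaged 3545 FPKM in males and 4429 FPKM in females, while Avil averaged 1319 and 1081 FPKM. The median log2 fold change of the 9 was 0.02. The part of these markers in the Hox values was not tested.

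The most abundant member showed no such order. Hoxa7 had a log2 fold change of 0.28 (SE 0.39) after SNL and was both highest and lowest in a female library. Hoxa10, Hoxc10, Hoxd10 and Hoxd11 had log2 fold changes of -0.08, 0.15, 0.13 and 0.20, all smaller than their SE, and for Hoxc9, Hoxb6, Hoxb7 and Hoxd8 the values were -0.64, -0.75, -0.64 and -0.44 with none past an unadjusted p of 0.05. Leaving out single libraries moved the Hoxa7 value between -0.14 and 0.68. The non-coding row Hoxd3os1 (chr2:74703248-74716130, minus strand), which overlaps Hoxd8, Hoxd3 and Hoxd4, had 0, 2.43 and 1.13 FPKM in SNL males against 4.91, 10.6 and 14.7 FPKM in SNL females. Its log2 fold change was -2.40 (SE 0.52, p = 0.00148, adjusted p = 0.945 by limma), with the sexes apart. In naïve libraries Hoxd3os1 was listed at 0 in 11 of 22 and went the other way. It averaged 3.62 FPKM in naïve males and 1.71 FPKM in naïve females, with a log2 fold change of 0.55 (p = 0.316 by limma). Gm53 had 0.446, 0.609 and 0 FPKM in SNL males against 1.38, 1.26 and 1.09 FPKM in SNL females and a log2 fold change of -0.76 (p = 0.0429, adjusted p = 0.945 by limma). These were 2 of the 5 other rows inside the clusters tested after SNL, against 3.69% of all genes at an unadjusted p under 0.05. Hotairm1 and Gm28309 were higher in males, with log2 fold changes of 0.65 and 0.49, and Haglr had -0.15.

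In naïve neurons, no Hox gene was called either. With the filter at 3 libraries of a sex, 22 members were tested, 0 were called and 0 had an unadjusted p under 0.05, against 7 of 12893 genes (0.0543%) called and 1069 (8.29%) at an unadjusted p under 0.05. The sexes were close, with 13 of 22 members lower in males (59.1%) and a median log2 fold change of -0.08, against -0.07 over all genes. The 2 smallest p-values belonged to Hoxa5 and Hoxc9. Hoxa5 had 0 to 3.14 FPKM (median 0.848) in naïve males and 0 to 1.15 FPKM (median 0.455) in naïve females, with a log2 fold change of 0.33 (SE 0.22, p = 0.15, adjusted p = 0.658 by limma). Hoxc9 had 0 to 5.72 FPKM (median 2.95) in naïve males and 0 to 3.19 FPKM (median 1.5) in naïve females, with a log2 fold change of 0.39 (SE 0.33, p = 0.238, adjusted p = 0.712 by limma). The sexes overlapped for both.

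The comparison was repeated without the 4 naïve libraries near 0, 2 of each sex. They were left out for their Hox levels, which by itself narrows the spread of these genes, so the p-values of members without them are given as a description. Then 22 members were tested, 13 were lower in males, with a median log2 fold change of -0.10 against -0.08 over all genes, 0 were called and 1 had an unadjusted p under 0.05, against 829 of 12678 genes (6.54%). That member was Hoxc9, with 1.49 to 5.72 FPKM in 9 naïve males and 0.866 to 3.19 FPKM in 9 naïve females, and a log2 fold change of 0.48 (SE 0.21, p = 0.0341, adjusted p = 0.745 by limma). Hoxa5 then had a log2 fold change of 0.40 (SE 0.22, p = 0.0893, adjusted p = 0.745 by limma). Hoxc9 averaged 3.17 FPKM in males and 1.99 FPKM in females, whereas after SNL Hoxc9 was lower on average in males, at 1.43 FPKM, than in females, at 2.94 FPKM. The difference between these 2 contrasts was not tested, because they come from separate tables. Satellite glia markers, of which 10 were tested in all naïve libraries, had 0 calls and 3 with an unadjusted p under 0.05, all lower in males. Of all genes tested in those libraries, 1069 of 12893 (8.29%) had such a p, and 761 of the 1069 were lower in males. The part of the satellite glia markers in the Hox values was not tested.

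**Figure D5:**
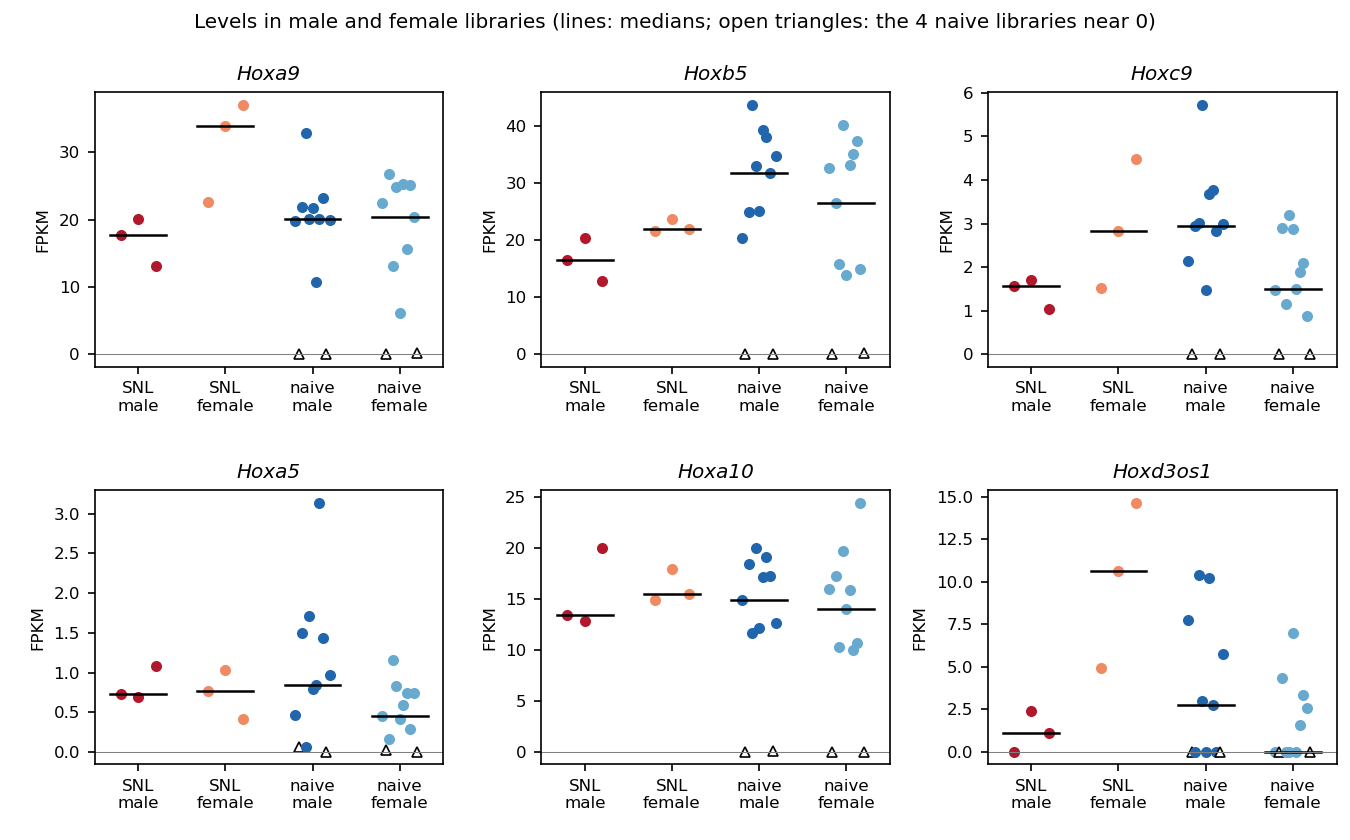
FPKM of Hoxa9, Hoxb5, Hoxc9, Hoxa5, Hoxa10 and Hoxd3os1 in males (left of each pair) and females, after SNL and in naïve neurons, on linear axes. Each point is 1 library, short lines are medians and open triangles are the 4 naïve libraries near 0; the sexes are apart only after SNL, for Hoxa9, Hoxb5 and Hoxd3os1, none of which passed the adjusted test.

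The partners and regulators of Hox genes were present on both sides. Of 9 TALE cofactors, 8 averaged 1 FPKM or more after SNL and 9 in naïve libraries. Pknox2 (Prep2) and Meis3 were the highest, with means of 41.9 and 15.5 FPKM after SNL and 21.6 and 16.5 FPKM in naïve libraries. None was called between the sexes (median log2 fold change -0.17 after SNL and -0.13 in naïve neurons, against -0.08 and -0.07 over all genes), with 8 tested after SNL and 9 in naïve neurons, and 2 had an unadjusted p under 0.05 after SNL: Meis3, with a log2 fold change of -0.71, and Pknox2, with 0.59. Of all genes tested after SNL, 417 of 11303 (3.69%) had such a p. Meis2, singled out after its values were seen, was high in the 4 naïve libraries. It had 5.38 FPKM in male 2, 9.01 in male 10, 13.8 in female 2 and 5.03 in female 11, all above the highest of the other 18, 3.92 FPKM, and 0.282 to 0.808 FPKM after SNL. Of the 12893 genes tested, 33 (0.256%) had all 4 above all 18.

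Other regulators of the axis were nearly silent. Of 15 such genes, among them Cdx2, Otx2 and Gbx2, all listed at 0, none averaged 1 FPKM after SNL and 1 did so in naïve libraries, namely Egr2 (Krox20), a hindbrain gene that Schwann cells also use, with a mean of 2.38 FPKM. It had a log2 fold change of -0.88 between naïve males and females (p = 0.0214, adjusted p = 0.595 by limma). Polycomb genes (14) gave 11 tested after SNL and 12 in naïve neurons, and trithorax genes and H3K27 demethylases (9) gave 9 and 9, with 0 called in either experiment. Their median log2 fold changes were -0.42 after SNL and -0.11 in naïve neurons for Polycomb, and -0.19 and -0.18 for trithorax. The Polycomb genes Ezh1 and Phc2 averaged 36.3 and 10.4 FPKM after SNL and 28.1 and 10.8 FPKM in naïve libraries, and the trithorax partners Men1 and Rbbp5 25.9 and 14.1 FPKM after SNL and 20.3 and 13.4 FPKM in naïve libraries. Of 16 retinoic acid and axial signalling genes, 8 were tested after SNL and 13 in naïve neurons with 0 called and median log2 fold changes of -0.36 and 0.002. The receptor gene Rxrg averaged 9.003 FPKM after SNL and 13.6 FPKM in naïve libraries, Rxrb 9.42 FPKM after SNL, and Crabp1, which carries retinoic acid in the cell, 9.83 FPKM in naïve libraries.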

How the data were processed

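Sensory neuron RNA-seq was analysed from the tables deposited with the study, 6 SNL and 22 naïve libraries, all assigned to groups from the labels. The authors mapped reads with STAR to mm10, keeping unique alignments, and used SAMtools and Cufflinks (with bias and multi-read corrections) to make the deposited FPKM values. No source used here gives tool versions or the annotation. The authors also deposited a signal per gene, the mean normalized count over all libraries of an experiment from DESeq2, which was used only to look at genes listed at 0. The fold changes and p-values of their own comparisons in the same tables were not used. RNA integrity numbers are scores deposited with the alignment statistics. The FPKM files carry no counts per library, so no count model or counting interval could be had, and depth is known only from the reads per library.

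The 39 members were found by gene symbol, and 1 of them enters the sums and counts but is not reported here by itself. Male was compared with female within each experiment by limma 3.58.1 (R 4.3.3) on log2(FPKM + 1) with an intensity trend, without a replicate block, over all genes at 1 FPKM or more in at least 2 (SNL) or 3 (naïve) libraries of a sex, with Benjamini-Hochberg adjustment over all genes tested and a threshold of 0.05. Fold changes on this scale understate the change of low genes. The p-values measure the spread between pools of mice. Values by library are given for the 3 highest members of each cluster in each experiment, the 2 members with the smallest p, non-coding rows averaging 1 FPKM and, of other lists, the 2 highest members, with a few genes singled out where the text says so. The members, gene lists and the 4 naïve libraries named were chosen with earlier results of these data known. Alternatives were other pseudocounts, filters, scalings, a fit without the trend, a replicate block, and leaving out single SNL libraries or the 4 naïve libraries. Replicate numbers were checked for pairing, since the methods describe batches matched or controlled for sex. Same-numbered samples of the 2 sexes correlated at -0.207 to 0.256 after SNL and -0.164 to 0.282 in naïve libraries. The numbers were therefore not taken as pairs. A batch need not follow the number, and 3 SNL pairs are too few to exclude pairing. Upstream regions came from RefSeq (GRCm38.p6), and Python 3.11.15 with pandas 2.3.3 and matplotlib 3.10.9 was used for tables and plots. The code for the fits was tested on simulated data.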

Additional observations from a re-analysis of the deposited data

Results flagged for a closer look

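Hox genes with 0 FPKM in every library but reads in the authors' count table stood out as a signal outside the FPKM values. After SNL these were Hoxa3, with an authors' mean normalized count of 15.9, Hoxa4, with 17.8, and Hoxd4, with 5.44. In naïve libraries they were Hoxa3, with 8.57, and Hoxa4, with 6.19. Of the members listed at 0 in every library, 3 of 11 after SNL and 2 of 10 in naïve libraries had a mean normalized count above 3. Over all genes, the same held for 1027 of 24725 listed at 0 in every SNL library and 1426 of 22092 in every naïve library. Other genes show it as well, at a smaller share. All 3 rows overlap other rows of their clusters. The groups of 3 SNL and 11 naïve libraries were not tested for single libraries far from the rest.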

How the results depend on the processing

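The count of Hox genes called between the sexes was 0 in all 23 alternatives run. The number passing the filter moved with it: 14 after SNL, 24 at 0.1 FPKM, 6 at 5 FPKM and 13 to 14 without single libraries, and 22 in naïve neurons, 9 at 5 FPKM. Over all genes, the 5 calls after SNL became 0 with a pseudocount of 0.01, with no filter or with the replicate block, and 5 to 13 without single libraries. The 7 naïve calls became 4 with a mean of at least 1 FPKM and 5 with the replicate block. The block left 0 Hox genes called in both experiments and gave Hoxa9 p = 0.0227 after SNL (limma, unadjusted). In 2 of 6 SNL and 1 of 22 naïve libraries the best correlation was with the same number.

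Of 299 alternative fold changes, 286 kept their sign and 13 turned, and 7 of 12 SNL and 14 of 15 naïve members kept it throughout. After SNL the values without single libraries ran from -0.14 to 0.68 for Hoxa7, -0.27 to 0.031 for Hoxa10, -0.024 to 0.50 for Hoxc10, -0.27 to 0.44 for Hoxd10, -0.11 to 0.50 for Hoxd11, -1.04 to -0.67 for Hoxa9 and -0.59 to -0.28 for Hoxb5. The median of the tested members after SNL ran from -0.45 to -0.27 without single libraries. Without naïve female replicate 4, an alternative added after the data were seen, the coefficient of variation over the other naïve libraries was 106% for Hoxd10, against 142% with it, and 131% for Hoxd11, against 159%. Without SNL female replicate 3, 0 Hox genes had an unadjusted p under 0.05. Hoxa10 after SNL was 0.0056 under median-of-ratios scaling and 0.0089 under quantile normalization, and in naïve neurons -0.018 with a pseudocount of 0.01. These scalings moved the SNL median of all genes to 0.00 and 0.01 and that of the tested Hox genes to -0.36 and -0.28. The cause was not tested.

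The Hoxa share after SNL, 63.3% of summed FPKM, was 30.0% of the members at 1 FPKM or more and 44.0% without Hoxa7, and in the other 18 naïve libraries 52.9% became 25.0% and 34.9%. For paralogs 5 to 8, 55.1% became 44.2% and 31.5% after SNL, and 58.0% became 44.1% and 44.0% in the 18. The shares thus depend on Hoxa7. Members that did not pass the filter were not compared between the sexes.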
